A study of Mus musculus with 16 samples.

Results

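The inflammasome partners and products examined here are 10 mouse genes: the adaptor gene Pycard, the caspase genes Casp1, Casp4 and Casp8, the pore gene Gsdmd, the NLR family genes Nlrp3, Nlrp1a and Nlrc3, and the cytokine genes Il18 and Il1b. They were taken by gene symbol, as named parts of the machinery around the DNA sensor AIM2, and make up 10 of the 53090 genes listed in each library. RNA sequencing was done on CD4+ T cells of WT and Aim2-/- mice in 16 libraries, 4 in each of 4 groups. WT Tn and Aim2-/- Tn were naïve splenic cells taken without culture. WT Treg and Aim2-/- Treg were CD4+ T cells stimulated with antibodies against CD3 and CD28 together with human TGF-beta and mouse IL-2, all recombinant, and harvested after 48 h (2 days) of this regulatory T cell culture. The naïve cells had been purified with magnetic beads, the Aim2-/- mice were on the C57BL/6 background, and the cultured groups are whole cultures in which not every cell need be a regulatory T cell. The ages of the mice were not given in the sources used here. The labels number the libraries within a group but do not say that each came from a separate mouse, so the p-values below measure the spread between these libraries only.

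AIM2 binds DNA in the cytosol and recruits the adaptor ASC, encoded by Pycard, which in turn gathers pro-caspase-1. Active caspase-1 matures IL-1beta and IL-18 and cleaves gasdermin D, whose freed N-terminal part forms pores in the plasma membrane. This assembly is best known from macrophages and dendritic cells, which are the classical producers of IL-1beta, and AIM2 has also been studied in T cells for roles apart from it.

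The deposited values were RSEM expected counts, which are estimated read counts per gene, and their totals were 22516424 to 34533316 per library. Levels of a gene are given as CPM, read counts scaled to a common library size with TMM factors over the 16 libraries, and levels of different genes are compared as RPKM, the same value per kilobase of annotated exon. At these depths 3 counts, the limit that a count of 0 allows, equalled 0.087 to 0.133 CPM, and such limits cover counting error only. A gene was tested where at least 4 of the 8 libraries compared held 10 or more counts, a fold change is given on the log2 scale with its standard error (SE), and p-values are from the quasi-likelihood test of edgeR, adjusted by Benjamini and Hochberg's method over all genes tested, with 0.05 as the threshold. The CD4+ T cell markers Cd3e, Cd4 and Trac were high in all 4 groups (in WT Tn 324, 900 and 806 CPM, and in WT Treg 207, 389 and 288 CPM). Cultured cells of WT mice held 477 CPM of Foxp3 and 1452 CPM of Il2ra against 2.74 and 3.46 CPM in WT Tn. Ccr7, which marks naïve cells, had a mean of 944 CPM (411 to 1564) in WT Tn and of 286 CPM (255 to 338) in WT Treg. The WT Tn libraries fell into separate levels of the sum of 5 Treg and activation markers. This sum was 95.7 and 96.1 CPM in replicates 1 and 2 and 35.5 and 39.2 CPM in replicates 3 and 4. In Aim2-/- Tn it was 87.5 to 97.2 CPM. Most of the split lay in Ctla4 (12.8 to 80.0 CPM in WT Tn), as Foxp3, Il2ra, Ikzf2 and Tnfrsf9 stayed within 1.98 to 12.5 CPM. Results of the tested members that rest on WT Tn are therefore also given without its replicates 3 and 4. Those of Aim2 and of further genes named below are not.

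The targeted gene was lower in every Aim2-/- library. Aim2 measured 37.9, 36.9, 32.3 and 33.2 CPM in the 4 WT Tn libraries and 9.26, 6.77, 6.61 and 6.99 CPM in those of Aim2-/- Tn. After culture the values were 35.7, 40.8, 43.3 and 39.9 CPM in WT Treg and 10.8, 9.95, 8.86 and 7.17 CPM in Aim2-/- Treg. The difference was -2.24 (SE 0.13, adjusted p = 1.1e-05 in edgeR) in Tn and -2.12 (SE 0.13, adjusted p = 0.00013) in Treg. Reads therefore remained on the gene in the Aim2-/- libraries, and in WT cells its level did not pass the test for culture (0.15, SE 0.09, adjusted p = 0.14).

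Of the 10 members, 6 passed the count filter in every comparison (Pycard, Casp1, Casp4, Casp8, Gsdmd and Nlrc3) and 4 passed it in none (Nlrp3, Nlrp1a, Il18 and Il1b). Per exon length, Casp8 was the highest member in WT Tn at 51.8 RPKM ± 6.99 (SD, n = 4), which placed it at the 94.8th percentile of 14540 genes. Gsdmd followed at 30.3 ± 2.03 RPKM. The levels of Pycard (15.9 ± 3.43 RPKM) and Nlrc3 (15.4 ± 2.73 RPKM) overlapped between libraries, and both lay above Aim2 itself (9.23 to 10.8 RPKM). Casp1, the protease that the AIM2 inflammasome activates, was far below its adaptor and its substrate gasdermin D, at 2.92 ± 0.416 RPKM and the 45.4th percentile. Casp4 came last of the 6, at 0.627 ± 0.194 RPKM.

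**Figure D1:**
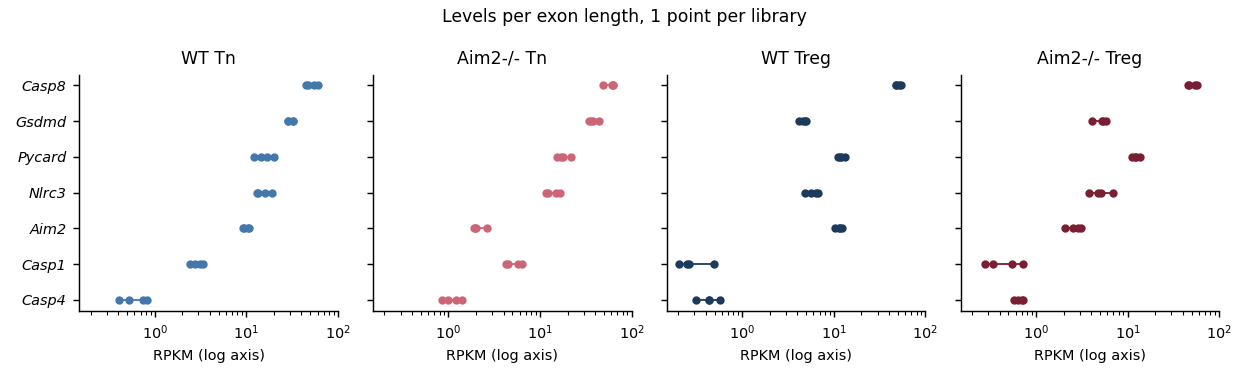
Level of Aim2 and of the 6 members that passed the count filter, as RPKM on a log axis, with 1 point per library, a line over the range of each gene and 1 panel per group. In WT Tn the order runs from Casp8 (51.8 RPKM) to Casp4 (0.627 RPKM), and in WT Treg Gsdmd (4.65 RPKM) and Casp1 (0.303 RPKM) stand at lower places than in WT Tn.

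After culture this order was another one. In WT Treg Casp8 (50.5 ± 3.36 RPKM) was followed by Pycard (12.0 ± 0.906 RPKM) and Aim2 (11.4 ± 0.910 RPKM), which overlapped. Nlrc3 (5.86 ± 0.791 RPKM) and Gsdmd (4.65 ± 0.343 RPKM) came next and overlapped as well. Casp4 (0.438 ± 0.108 RPKM) and Casp1 (0.303 ± 0.131 RPKM) were at the bottom, with Casp1 at percentile 18.1. In Aim2-/- Treg the last places were again held by Casp4 (0.657 ± 0.0656 RPKM) and Casp1 (0.471 ± 0.203 RPKM). The place of Pycard depends on the length used, because its annotated exon length of 3800 bases holds a coding length of only 579 bases. Per coding length, Pycard and Casp8 stood level in WT Tn, at 104 RPKM each.

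The stretch of 250 bases before the start site is shown for 5 members, chosen to set genes that fell in culture (Casp1, Nlrc3 and Pycard) beside a member whose difference did not pass the test (Casp8) and a cytokine gene with next to no reads (Il1b). Sequences are RefSeq entries on GRCm38.p6, written 5′ to 3′ on the strand of the gene, and capitals mark a CCAAT box or a TATA box. A RefSeq entry was found for 9 of the 10 members, Gsdmd being the other gene.
Casp1, chr9:5298267-5298516, plus strand: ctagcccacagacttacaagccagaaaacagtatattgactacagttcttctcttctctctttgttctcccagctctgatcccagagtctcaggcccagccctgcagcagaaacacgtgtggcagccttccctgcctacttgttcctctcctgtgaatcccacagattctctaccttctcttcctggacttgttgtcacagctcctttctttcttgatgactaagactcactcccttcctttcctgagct
Nlrc3, chr16:3976633-3976882, minus strand: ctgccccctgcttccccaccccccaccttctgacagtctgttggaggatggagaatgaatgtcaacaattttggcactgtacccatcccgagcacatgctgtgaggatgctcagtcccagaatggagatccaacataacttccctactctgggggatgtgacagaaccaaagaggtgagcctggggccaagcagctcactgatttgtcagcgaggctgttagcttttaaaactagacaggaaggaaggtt
Pycard, chr7:127993868-127994117, minus strand: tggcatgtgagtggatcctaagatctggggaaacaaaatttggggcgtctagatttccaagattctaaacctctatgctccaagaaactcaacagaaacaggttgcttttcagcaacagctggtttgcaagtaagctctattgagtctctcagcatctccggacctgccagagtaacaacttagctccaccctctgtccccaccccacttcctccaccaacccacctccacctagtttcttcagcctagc
Casp8, chr1:58802252-58802501, plus strand: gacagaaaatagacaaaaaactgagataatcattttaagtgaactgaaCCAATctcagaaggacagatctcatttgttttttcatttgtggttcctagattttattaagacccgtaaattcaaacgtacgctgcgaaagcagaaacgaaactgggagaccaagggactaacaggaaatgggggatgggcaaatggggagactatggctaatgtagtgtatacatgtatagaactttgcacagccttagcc
Il1b, chr2:129371140-129371389, minus strand: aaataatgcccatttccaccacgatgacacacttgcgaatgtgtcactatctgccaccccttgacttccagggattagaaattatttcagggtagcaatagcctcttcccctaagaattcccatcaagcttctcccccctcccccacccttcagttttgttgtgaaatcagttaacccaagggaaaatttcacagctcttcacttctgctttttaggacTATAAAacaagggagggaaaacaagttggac
These windows were searched on both strands for the letters CCAAT of the CCAAT box, TATAAA of the TATA box, GGGCGG of the GC box and TTCNNNGAA of the gamma-activated sequence, and for the core of the interferon-stimulated response element. The windows of Casp1, Nlrc3 and Pycard held none of these motifs. Casp8 held CCAAT at 202 bases before its start, a word found in 33.8% of 32851 mouse windows of this length, and Il1b held TATAAA at 31 bases before its start, found in 12.4%. GGGCGG occurs in 32.7%, TTCNNNGAA in 7.02% and the response element core in 2.98% of the windows, and no member with an entry held any of these. The 5 printed windows contained 1 to 5 CpG dinucleotides, against a median of 6 over all windows. The start of Casp8 in RefSeq lies inside the longer gene annotated by GENCODE.

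Whether T cells hold the parts for an AIM2 inflammasome before and after culture was read first from Treg against Tn, within each genotype. The tested members fell or did not pass the test, and none rose. In WT cells 4 of 6 fell (Casp1, Gsdmd, Nlrc3 and Pycard), in a comparison where 76.9% of all genes tested were called and 39.2% were called lower. In Aim2-/- cells 5 of 6 fell (the same 4 and Casp4), where 79.3% of all genes were called and 40.2% were called lower. The median change of the 6 was -0.99 in WT and -1.10 in Aim2-/- cells, beside -0.05 and -0.04 over all genes tested. All 4 cultured libraries lay below all 4 naïve ones for 3 of 6 members in WT cells, as for 35.7% of all genes, and for 5 of 6 in Aim2-/- cells, as for 37.5%. Without WT Tn replicates 3 and 4, 10081 of all genes were called in WT cells. Casp1 (-3.48), Gsdmd (-2.67), Nlrc3 (-1.23) and Casp4 (-0.89) were then called lower and Pycard was not. Casp8 differed by 0.08 (adjusted p = 0.37 in edgeR). Most genes differed between Tn and Treg. Stimulation, cytokines and time in culture cannot be told apart in this comparison. In bulk RNA a smaller share of cells with a transcript and less of that RNA per cell cannot be told apart. CPM is also relative to all reads of a library, so these falls are relative and amounts per cell were not measured.

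**Figure D2:**
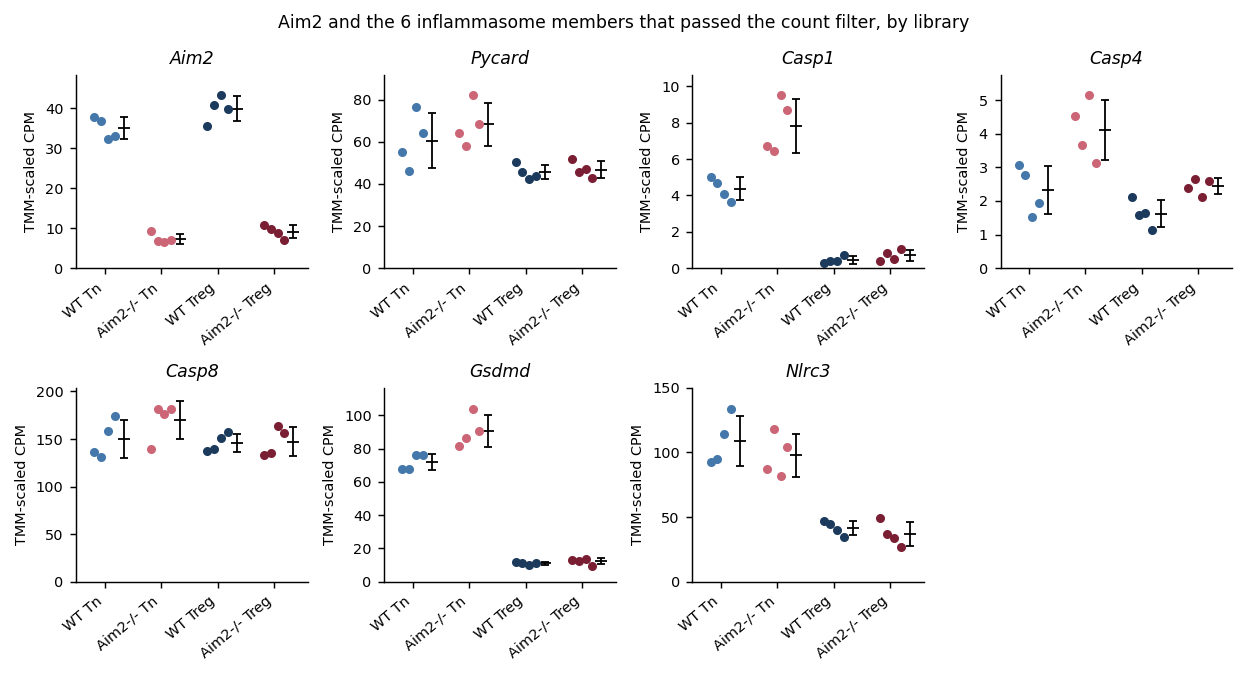
Level of Aim2 and of the 6 tested members in TMM-scaled CPM, with 1 point per library and, beside each group of 4, the mean with its SD. Casp1 and Gsdmd are separated between Tn and Treg in both genotypes (means of 4.37 against 0.453 CPM and 72.0 against 11.0 CPM in WT), while Casp8 stays between 131 and 182 CPM in all 16 libraries.

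Pycard, on chromosome 7 (127989708 to 127993867, minus strand, GRCm38), encodes ASC, the adaptor that links AIM2 to caspase-1. Its level was 55.3, 45.9, 76.5 and 64.2 CPM in WT Tn and 50.3, 45.8, 42.4 and 43.9 CPM in WT Treg. It measured 64.3, 57.9, 82.0 and 68.6 CPM in Aim2-/- Tn and 51.9, 45.5, 47.2 and 42.7 CPM in Aim2-/- Treg. In WT cells the groups overlapped and the fall was small (-0.44, SE 0.14, adjusted p = 0.019 in edgeR). In Aim2-/- cells every Treg library lay below every Tn library (-0.55, SE 0.11, adjusted p = 0.00069). The fall in WT cells was no longer called without WT Treg replicate 2, 3 or 4 (adjusted p = 0.061, 0.078 and 0.068), nor without WT Tn replicates 3 and 4 together (-0.20, adjusted p = 0.11). Pycard had estimated counts that were not whole in 15 of the 16 libraries, as RSEM gives where a read could come from several genes, and the predicted gene Gm45205 overlaps it on the other strand.

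Casp1, on chromosome 9 (5298517 to 5307265, plus strand), encodes the caspase at the centre of the inflammasome. It measured 5.04, 4.70, 4.10 and 3.65 CPM in WT Tn, and 0.30, 0.38, 0.39 and 0.74 CPM in WT Treg. In Aim2-/- cells it measured 6.71, 6.43, 9.50 and 8.67 CPM in Tn and 0.41, 0.83, 0.51 and 1.08 CPM in Treg. Every cultured library was therefore below every naïve one, and the fall was 9.89-fold in WT cells (-3.31, SE 0.29, adjusted p = 3.4e-06 in edgeR) and 11.12-fold in Aim2-/- cells (-3.47, SE 0.29, adjusted p = 5.2e-07). The Treg values rest on 9 to 29 counts per library, so Casp1 reads were scarce but present in each culture.

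Casp4 lies next to Casp1 on the same strand (5308828 to 5336783) and encodes mouse caspase-11, which binds bacterial lipopolysaccharide in the cytosol and can cleave gasdermin D without AIM2. WT Tn held 3.07, 2.77, 1.52 and 1.94 CPM and WT Treg 2.13, 1.59, 1.63 and 1.15 CPM. Aim2-/- Tn held 4.53, 3.65, 5.14 and 3.12 CPM and Aim2-/- Treg 2.38, 2.66, 2.12 and 2.60 CPM. The WT groups overlapped and did not pass the test (-0.55, SE 0.28, adjusted p = 0.10 in edgeR), although they did without WT Tn replicate 3 (adjusted p = 0.035) and without WT Tn replicates 3 and 4 (-0.89, adjusted p = 0.014). Casp4 fell in Aim2-/- cells, with no overlap (-0.76, SE 0.20, adjusted p = 0.0046). Per exon length, Casp4 lay below Casp1 in every Tn library of its group and overlapped with it in both Treg groups, while per coding length it stood above Casp1 in WT Treg (1.45 against 0.376 RPKM).

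Casp8, on chromosome 1 (58795374 to 58847503, plus strand), encodes the initiator caspase of death receptor signalling, which can also be recruited by ASC. It was measured at 136, 131, 158 and 174 CPM in WT Tn and at 137, 139, 151 and 157 CPM in WT Treg, with a difference of -0.07 (SE 0.10, adjusted p = 0.54 in edgeR). Aim2-/- Tn held 140, 182, 176 and 182 CPM and Aim2-/- Treg 133, 135, 164 and 156 CPM, with a difference of -0.22 (SE 0.11, adjusted p = 0.073). The groups overlapped in both genotypes. In Aim2-/- cells the difference passed the test without Aim2-/- Tn replicate 1, the lowest of its group (-0.36, adjusted p = 0.0047). Casp8 also had estimated counts that were not whole, in 16 of 16 libraries, and overlaps the predicted gene Gm37760 on its own strand.

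Gsdmd, on chromosome 15 (75862327 to 75867408, plus strand), encodes gasdermin D, the pore-forming substrate of caspase-1 and caspase-11. Per exon length it came next to Casp8 in Tn, while per coding length Pycard lay above it (104 against 49.3 RPKM in WT Tn). The WT Tn libraries held 67.9, 67.8, 76.0 and 76.4 CPM, and the Aim2-/- Tn libraries 81.5, 86.2, 104 and 90.8 CPM. After culture it measured 11.8, 11.0, 9.93 and 11.4 CPM in WT Treg and 12.9, 12.6, 13.8 and 9.62 CPM in Aim2-/- Treg. The Treg and Tn libraries were far apart in both genotypes. Gsdmd fell 6.66-fold in WT cells (-2.74, SE 0.09, adjusted p = 6.3e-09 in edgeR) and 7.45-fold in Aim2-/- cells (-2.90, SE 0.13, adjusted p = 3e-09).

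Nlrc3, on chromosome 16 (3945007 to 3976632, minus strand), encodes an NLR protein that is described as a brake on innate and T cell signalling rather than as a sensor that builds an inflammasome. It measured 92.7, 94.7, 114 and 134 CPM in WT Tn and 47.0, 44.7, 39.6 and 34.5 CPM in WT Treg. The values were 87.3, 118, 81.8 and 104 CPM in Aim2-/- Tn and 49.0, 36.5, 33.9 and 26.9 CPM in Aim2-/- Treg. Every culture was below every naïve library, and the fall was 2.68-fold in WT (-1.42, SE 0.14, adjusted p = 9.5e-06 in edgeR) and 2.69-fold in Aim2-/- cells (-1.43, SE 0.18, adjusted p = 3.1e-05).

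The other sensors and the cytokine products were at or near 0. Nlrp3 (chromosome 11, 59541568 to 59566956), the sensor of the best studied inflammasome, had 1, 3, 1 and 1 counts in WT Tn, 1, 1, 1 and 0 in Aim2-/- Tn, 1, 0, 0 and 0 in WT Treg and none in Aim2-/- Treg. Nlrp1a (chromosome 11, 71092236 to 71144704) had 3, 5, 1 and 1 counts in WT Tn, 2, 3, 0 and 4 in Aim2-/- Tn, 2, 1, 0 and 1 in WT Treg and 2, 0, 6 and 2 in Aim2-/- Treg. It is a member of a family of close copies with Nlrp1b. The estimated counts of both genes were whole in every library, so these values show no reads divided between them. Il1b (chromosome 2, 129364570 to 129371139), the gene of IL-1beta, had 1, 1, 0 and 0 counts in WT Tn and 1, 2, 3 and 2 in Aim2-/- Tn. In Treg it had 0, 0, 0 and 1 counts in WT and none in Aim2-/- cells. Il18 (chromosome 9, 50554827 to 50581840) had 7, 0, 3 and 2 counts in WT Tn, 0, 4, 5 and 4 in Aim2-/- Tn, 0, 0, 0 and 3 in WT Treg and 0, 1, 1 and 1 in Aim2-/- Treg. No library reached 10 counts of any of these 4 genes. Both cytokine genes overlap genes on the opposite strand, and the strand setting of the counting was not given in the sources used here. For Nlrp3 and Il1b in Aim2-/- Treg, the count of 0 allows up to 3 counts per library, or 0.100 to 0.113 CPM. These 4 genes were therefore not tested between groups with the others. When all genes were kept, Il1b was called lower in Aim2-/- Treg than in Aim2-/- Tn (adjusted p = 0.021 in edgeR), on 1 to 3 counts per library against 0.

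**Figure D3:**
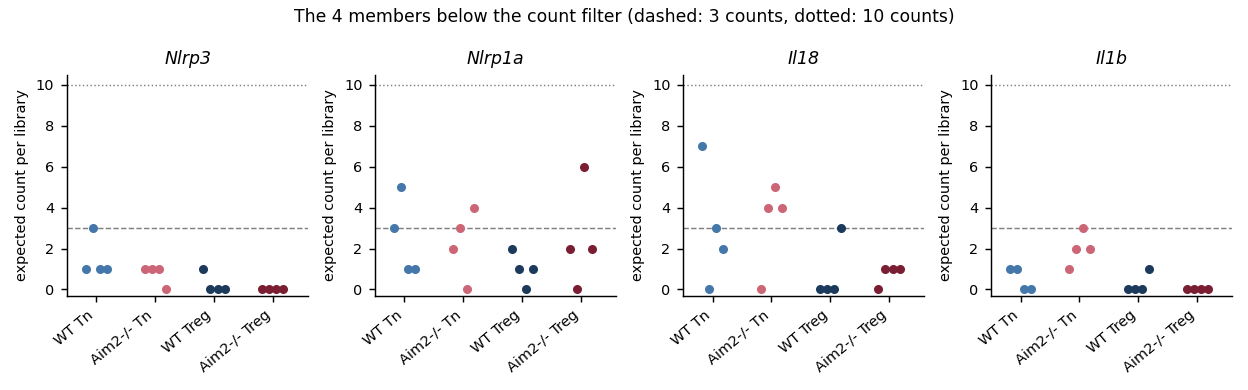
Expected counts per library of the 4 members below the count filter, with 1 point per library, a dashed line at 3 counts and a dotted line at the 10 counts that the filter asks for. The highest point is 7 counts, for Il18 in WT Tn, and all points of Nlrp3 and Il1b in Aim2-/- Treg are at 0.

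Summed markers of myeloid cells and of CD8 T and NK cells were lower in Treg than in Tn, and those of dendritic cells overlapped. The summed level of 15 myeloid genes (led by Cd68) was 14.1 to 22.1 CPM in WT Tn, 14.7 to 19.1 in Aim2-/- Tn, 2.67 to 3.27 in WT Treg and 1.95 to 4.04 in Aim2-/- Treg. Lyz2, S100a8, S100a9, Tyrobp and Csf3r had no reads in either Treg group, and S100a8 had none in Tn. The 5 markers of CD8 T and NK cells (led by Cd8b1) summed to 15.7 to 29.7 CPM in WT Tn, 17.5 to 25.8 in Aim2-/- Tn, 2.96 to 6.43 in WT Treg and 3.27 to 6.19 in Aim2-/- Treg. The 8 CD4 T cell genes fell as well, from 4373 to 4621 CPM in WT Tn to 2152 to 2317 CPM in WT Treg. The 6 dendritic cell genes (led by Itgax in Tn and Zbtb46 in Treg) summed to between 0.593 and 2.55 CPM in all groups. Genes of this list went both ways in WT cells. Mean Zbtb46 rose from 0.172 to 0.928 CPM and Xcr1 was slightly higher in Treg. Itgax fell from 0.414 to 0.0325 CPM, and Flt3, Siglech and Clec9a were also lower in Treg. The part that other cell types have in the falls of Casp1, Gsdmd and the other members was not tested.

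Loss of Aim2 was then compared with WT within each state. In Tn none of the 6 tested members was called by edgeR, where 0.231% of all genes tested were called, while 3 had an unadjusted p under 0.05, as had 1389 of all 13441 genes. These 3 were Casp1, Casp4 and Gsdmd, and in each of them all 4 Aim2-/- libraries were above all 4 WT libraries. Such separation towards higher levels was seen in 3.36% of all genes tested. Casp1 had a mean of 7.82 CPM (6.43 to 9.50) in Aim2-/- Tn against 4.37 CPM (3.65 to 5.04) in WT Tn, a difference of 0.84 (SE 0.18, adjusted p = 0.16 in edgeR). DESeq2 called this gene (adjusted p = 0.0043) and no other member, and limma-voom called 0 members. The means of Casp4 were 4.11 ± 0.902 CPM (SD, n = 4) and 2.33 ± 0.719 CPM (0.82, SE 0.26, adjusted p = 0.39 in edgeR). Those of Gsdmd were 90.6 ± 9.64 and 72.0 ± 4.83 CPM (0.34, SE 0.09, adjusted p = 0.32). Without WT Tn replicates 3 and 4, again 0 of 6 were called by edgeR, where 123 of all genes were called. The differences were then 0.68 for Casp1, 0.49 for Casp4 and 0.41 for Gsdmd (adjusted p = 0.091, 0.24 and 0.076). The libraries of Pycard (0.18, SE 0.16), Casp8 (0.19, SE 0.12) and Nlrc3 (-0.15, SE 0.15) overlapped, with adjusted p-values of 0.71, 0.59 and 0.75. Without those replicates they differed by 0.43, 0.35 and 0.06 (adjusted p = 0.12, 0.12 and 0.81).

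The summed B cell and erythroid markers also separated these groups of naïve cells. The sums for dendritic cells and for CD8 T and NK cells overlapped. The 5 B cell genes (led by Cd79a) summed to 1.07 to 1.56 CPM in WT Tn and 1.58 to 2.33 CPM in Aim2-/- Tn. The 4 erythroid genes (led by Hba-a1) summed to 0.198 to 1.52 CPM and 1.58 to 2.44 CPM. The summed myeloid ranges given above overlapped, with means of 16.2 CPM in WT Tn and 16.3 CPM in Aim2-/- Tn. Genes of that list went both ways. Lyz2 did not overlap (0.119 to 0.929 CPM in WT Tn and 0.937 to 1.46 CPM in Aim2-/- Tn). Cd68, its leading gene, had the higher mean in WT Tn (8.71 against 7.12 CPM). The summed Treg and activation markers were low in WT Tn replicates 3 and 4, mostly through Ctla4. In these replicates Casp1 (4.10 and 3.65 CPM) and Casp4 (1.52 and 1.94 CPM) were also lower than in replicates 1 and 2. Gsdmd (76.0 and 76.4 CPM), Pycard, Casp8 and Nlrc3 were higher in them than in replicates 1 and 2. The part of these cells and states in the values of Casp1, Casp4 and Gsdmd was not tested.

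In Treg none of the 6 members was called for genotype by edgeR, DESeq2 or limma-voom, where edgeR called 0.219% of all genes, and 1 member had an unadjusted p under 0.05, as had 305 of all 13221 genes. This was Casp4, at 2.44 ± 0.243 CPM in Aim2-/- Treg and 1.62 ± 0.399 CPM in WT Treg (0.58, SE 0.20, adjusted p = 1 in edgeR), with overlap between the libraries. Casp1 differed by 0.64 (SE 0.39), Gsdmd by 0.15 (SE 0.12), Pycard by 0.04 (SE 0.08), Casp8 by 0.01 (SE 0.08) and Nlrc3 by -0.18 (SE 0.18), each with an adjusted p of 1. No member separated the genotypes, against 2.26% of all genes. Casp1 had 9 to 29 counts in these libraries. The interaction of genotype and state lay between -0.23 and -0.03 for the 6 members, and 0 of 6 were called by edgeR, DESeq2 or limma-voom (0 at an unadjusted p under 0.05, with 0.0205% of all genes called by edgeR). Without WT Tn replicates 3 and 4 it lay between -0.42 and 0.07. Again 0 of 6 were called by edgeR, where 34 of all genes were called. In that fit Pycard (-0.42) and Casp8 (-0.37) had unadjusted p-values of 0.027 and 0.026 in edgeR, with adjusted p = 0.29 and 0.28.

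**Figure D4:**
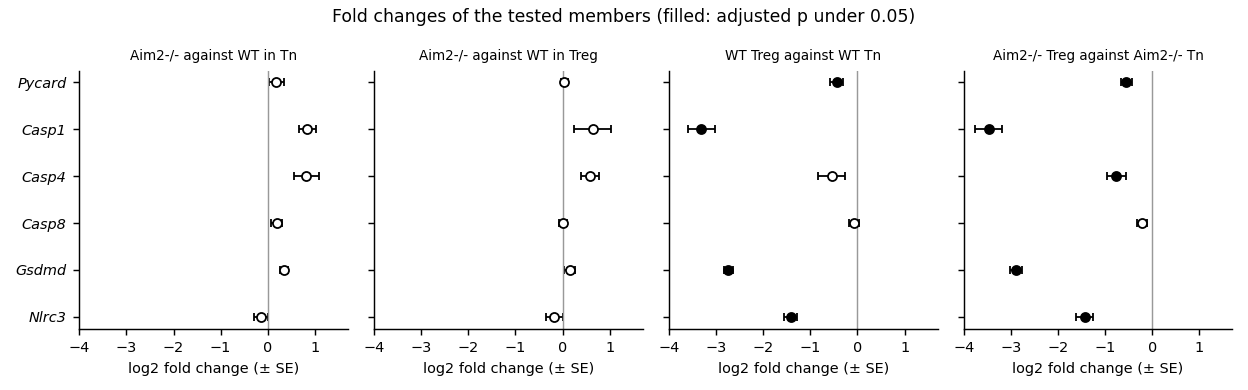
Log2 fold change of the 6 tested members in 4 comparisons, with bars of 1 SE and filled points where the adjusted p of edgeR was under 0.05. The genotype panels hold open points only, and the culture panels hold 4 filled points in WT and 5 in Aim2-/- cells, all below 0.

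Over the 16 libraries, the genes whose log2 CPM followed Gsdmd most closely among 14669 were Ifi27, Gimap4 and Trac (Pearson r of 0.998, 0.997 and 0.996). For Casp1 they were H2-K1, Arl6ip5 and H2-D1 (0.98 each). For Pycard they were AC109138.5, Gstp3 and Gm11707 (0.96, 0.96 and 0.95), and for Casp8 Preb, Pomk and Plscr3 (0.94, 0.94 and 0.93). These values describe 16 libraries that share 2 states, so any gene that differs strongly between Tn and Treg shares in them, and genes are not independent of each other.

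The wider machinery was read from 53 further genes of inflammasomes, cell death and the IL-1 family. None was called for genotype in Tn (36 tested) or in Treg (39 tested) by edgeR, with 5 and 1 at an unadjusted p under 0.05 (1389 of 13441 and 305 of 13221 over all genes), and DESeq2 and limma-voom called 0 as well. In culture, 36 of 39 were called in WT cells (16 higher and 20 lower, where 37.7% of all genes were higher and 39.2% lower) and 36 of 39 in Aim2-/- cells (17 higher and 19 lower, where 39.1% were higher and 40.2% lower). Of 14 other sensors 7 passed the count filter, and 6 of these were called lower in each genotype. Nlrp1b, at 0.189 CPM in WT Treg and 0.137 CPM in Aim2-/- Treg, passed the filter only through Tn in both genotypes and so had to be lower. The same held for Nlrc4 in Aim2-/- cells (0.0923 CPM in Treg). In both genotypes Il1a and Il1rn (0.0553 and 0.0170 CPM in WT Tn) passed the filter only through Treg and so had to be higher. Among the sensors that did not pass it, Nlrp6 was higher in Treg in both genotypes when all genes were kept (adjusted p = 0.0023 and 0.0075 in edgeR), with 0.225 and 0.145 CPM, and Nlrp10 was in Aim2-/- cells (adjusted p = 0.0082, 0.171 CPM in Treg). The death proteases and their partners were mostly higher, with 6 of 9 higher and 3 lower in each genotype. Among the regulators 4 of 8 were higher and 3 lower in each genotype.

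Named by the smallest p-values in each direction, the sensor Nod1, which detects bacterial peptidoglycan, fell from 38.8 to 1.22 CPM in WT cells (-5.03, SE 0.18, adjusted p = 1.2e-08 in edgeR) and from 43.4 to 1.60 CPM in Aim2-/- cells. Txnip, a thioredoxin-binding protein that has been linked to NLRP3, fell from 1499 to 78.4 CPM in WT, with 1537 and 73.5 CPM in Aim2-/- Tn and Treg. Zbp1, a sensor of Z-form nucleic acids that starts necroptosis, fell from 90.6 to 25.8 and from 112 to 22.5 CPM. The same held for Irak3, a brake on IL-1 and Toll-like receptor signalling (13.1 to 0.721 CPM in WT), and for Card6 (199 to 62.3 CPM in WT).

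Among the rising genes, Ninj1, whose product ruptures the plasma membrane of dying cells, went to 50.1 CPM from 14.0 CPM in WT (1.81, SE 0.42, adjusted p = 0.0034 in edgeR), and in Aim2-/- cells to 54.2 CPM from 12.1 CPM. Traf6, a ubiquitin ligase used by IL-1 receptors, rose from 113 to 395 CPM in WT, Dpp8, a peptidase that restrains NLRP1, from 76.4 to 128 CPM, and Il18rap, a subunit of the IL-18 receptor, from 3.68 to 19.0 CPM.

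Of the other IL-1 family ligands on the list, Il1rn and Il1a differed from Il1b and Il18, and Il33 did not. Il33 had a mean of 0 CPM in WT Tn, Aim2-/- Tn and WT Treg and of 0.00898 CPM in Aim2-/- Treg. Il1rn, the gene of the IL-1 receptor antagonist, had at most 2 counts in WT Tn and none in Aim2-/- Tn, and rose to 14.6 to 28.9 CPM in WT Treg and 14.7 to 58.0 CPM in Aim2-/- Treg. Against 3 counts per library, this was at least 193-fold higher in WT and at least 306-fold higher in Aim2-/- cells. Il1a, the gene of IL-1alpha, was at 3 counts or fewer in every WT Tn library and rose to 6.19 ± 1.63 CPM (SD, n = 4) in WT Treg, at least 54.4-fold higher by the same rule. In Aim2-/- cells Il1a was at 0 to 0.150 CPM in Tn and at 7.11 to 13.6 CPM in Treg. Its counts were not whole in 14 libraries, so they include shared reads. The cultures thus held reads of Il1a and Il1rn while Il1b, on the same chromosome, stayed at 0 or 1 count per library.

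**Figure D5:**
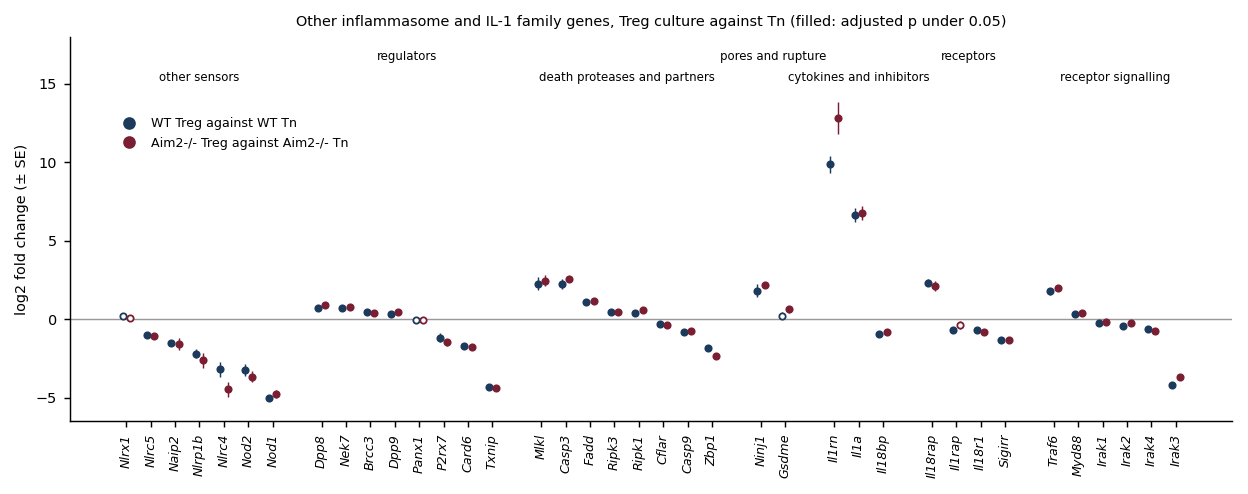
Log2 fold change of Treg against Tn for genes of the wider list tested in both genotypes, with those not reported here left out, grouped by role, with bars of 1 SE and filled points where the adjusted p of edgeR was under 0.05. The other sensors lie at or below 0 except Nlrx1 (open points), and the highest points are those of Il1rn and Il1a, whose fitted values depend on the prior count because Tn was at or near 0.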

How the data were processed

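RNA sequencing of 16 libraries of mouse CD4+ T cells (4 groups of 4, grouped by their labels) was analysed. Per the labels and the study's methods, the authors prepared stranded mRNA libraries, aligned reads with STAR to GRCm38 and counted genes with RSEM. Tool versions and the strand setting are not given in the sources used here. The deposited unit was the expected count (estimated counts per gene, not normalised), with totals of 22516424 to 34533316 per library. Expected counts were rounded, and 98.9% of the rows matched the GENCODE annotation used for coordinates and lengths.

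Tests used edgeR 4.0.16 (TMM, robust quasi-likelihood fit) on the 8 libraries of each comparison, or all 16 for the interaction, after a filter of 10 counts in at least 4 libraries. Same-numbered libraries did not all deviate together, so these tests had no replicate block. No group held a library deposited more than once (Pearson r of log2 CPM 0.972 to 0.990). Alternatives were DESeq2 1.42.0, limma-voom (limma 3.58.1), other scaling and filters, all 16 libraries, a replicate block, and leaving out each library. Length scales by principal transcript and coding sequence and a fit without WT Tn replicates 3 and 4 were added after seeing the data. Scripts were tested on simulated data.

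The 10 members and all gene lists were chosen with earlier results of these data known. Named were all members, Aim2, genes of the wider list called for genotype or interaction, up to 5 called genes in each direction per culture comparison by smallest p, the 3 genes closest to Pycard, Casp1, Casp8 and Gsdmd, the leading gene of each marker list and T cell markers. Some genes that this rule names are not reported here. Genes named outside this rule were chosen after their values were seen.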

Additional observations from a re-analysis of the deposited data

Results flagged for a closer look

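Of 48 sets of 4 libraries examined, 3 had 1 library far from the other 3, where Dixon's gap ratio (the gap to the nearest library over the whole range) was above its 95% critical value. Chance gives this in about 1 of 20 sets. Casp8 in Aim2-/- Tn had a ratio of 0.858, with replicate 1 at 140 CPM and the others at 176 to 182 CPM. Aim2 in Aim2-/- Tn had a ratio of 0.855, with the same replicate 1 at 9.26 CPM and the others at 6.61 to 6.99 CPM. The summed myeloid markers in WT Tn had a ratio of 0.963, with replicate 4 at 22.1 CPM and the lowest at 14.1 CPM. In that replicate Casp1 was the lowest of its group, at 3.65 CPM. Casp8 (174 CPM), Nlrc3 (134 CPM) and Gsdmd (76.4 CPM) were the highest of theirs, and Pycard and Casp4 lay in between. Any part of myeloid cells in these values was not tested.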

How the results depend on the processing

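The members called in culture kept their direction under all alternatives run. Without WT Tn replicates 3 and 4, the members called in WT culture were 4 as before, with Casp4 in the place of Pycard, and the sign changed for Nlrc3 in Tn (0.06), Casp8 in WT culture (0.08) and the interaction of Casp4 (0.07); over all genes 123 were called in Tn and 34 for the interaction. Among members tested for genotype in Tn, DESeq2 called 1 (Casp1, adjusted p = 0.0043) against 0 in edgeR. The replicate block called 1 gene of the wider list in Treg (Il1a, adjusted p = 0.035) against 0, and otherwise changed only Casp8 in Aim2-/- culture (adjusted p = 0.038) among the members. Same-numbered libraries correlated from -0.04 to 0.40 (0.40, 0.23, -0.01 and 0.35 for genotype in Treg, where the block called 41 genes against 29), and not every library was closest to its own number. Among the members, leaving out 1 library changed the sign of Casp8 (-0.05 to 0.05) and Pycard (-0.02 to 0.09) for genotype in Treg, Casp8 in WT culture (-0.16 to 0.0027), and the interactions of Casp1 (-0.45 to 0.14) and Nlrc3 (-0.20 to 0.10); the cause was not tested. Casp8 in Aim2-/- culture also passed where 10 counts were asked of every library (adjusted p = 0.045). Aim2 passed in WT culture with DESeq2 (adjusted p = 0.048) and without WT Treg replicate 1 (adjusted p = 0.038), and in Aim2-/- culture without Aim2-/- Treg replicate 4 (adjusted p = 0.026). Over all genes, DESeq2 called 127 against 31 in Tn, 52 against 29 in Treg and 10 against 3 for the interaction, and leaving out 1 library gave 17 to 28, 10 to 17 and 2 to 5. Il1b passed the test for culture in Aim2-/- cells only when genes were not filtered (adjusted p = 0.021). Casp1 could not be tested against WT Treg where 10 counts were asked of every library.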
